A study of Mus musculus with 12 samples.

Results

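The genes described here are 7 ligands of the EGF family (Areg, Ereg, Nrg1, Hbegf, Tgfa, Btc and Epgn) and the receptor gene Egfr. They were chosen by gene symbol, and all 8 were found among the 24411 gene symbols of the count table. RNA came from cultured primary colonic myofibroblasts that were isolated from the distal colon of C57BL/6 mice aged 16 weeks, used at passage 6 to 8 and collected on day 5 of growth in Matrigel. The knockout group (TNFR1-/-, 6 libraries) was compared with a control group that was heterozygous for the same gene (TNFR1-/+, 6 libraries), so that the controls also lacked 1 working copy. All cells were untreated, and no wild-type group was analysed here. Per the labels' protocols, the medium in which the cells were first grown held 20 ng/mL of recombinant murine EGF in both groups, and whether the Matrigel cultures held it is not given in the sources used here. The labels do not say whether each library had its own animal or culture, and all p-values therefore rest on how much these samples differ, which may reflect technical spread alone.

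EGF family ligands are made as membrane proteins and are released by metalloproteases at the cell surface. The released ligand binds EGFR (Areg, Ereg, Hbegf, Tgfa, Btc and Epgn products) or ERBB3 and ERBB4 (the Nrg1 product), and Btc, Ereg and Hbegf products also bind ERBB4. Bound receptors pair, phosphorylate each other and signal through the kinase ERK, among others. In the intestine, ligands of this family from mesenchymal cells act on crypt epithelium, where EGFR signalling drives proliferation.

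Total counts per library were 6543013 to 9937008 in the knockout and 11890729 to 16458689 in the control group. Levels are given as CPM, counts scaled to a common library size, and log2 differences are knockout minus control. The targeted gene Tnfrsf1a was read at 40.6 to 46.1 CPM in the knockout and 54.9 to 81.3 CPM in the control libraries, a log2 difference of -0.76 (SE 0.10; edgeR adjusted p = 9.24e-05), though the exons behind the remaining reads are not visible in counts per gene. By profile the libraries formed 4 sets, namely control 6 by itself, control 1 to 5, knockout 5 with 6, and knockout 1 to 4. Spearman's rho over genes ranged from 0.989 to 0.998 for pairs in the same set and from 0.927 to 0.955 for other pairs of 1 genotype, so each member is given by set as well as by group. Between genotypes rho was 0.884 to 0.976, and control 6 was closer to knockout 1 to 4 (0.969 to 0.976) than to control 1 to 5 (0.953 to 0.955). The ribosomal precursor transcript Rn45s took 7.01% and 8.25% of counts in knockout 5 and 6 and 0.351% to 2.1% in the other libraries, and its part in the results below was not tested. All 10 myofibroblast markers were read, Col1a1 (8727 CPM) the most, and they summed to 13984 to 35049 CPM in knockout and 25041 to 36014 CPM in control libraries. They did not move together: the contractile gene Acta2 averaged 5037 CPM in knockout and 1821 CPM in control libraries, and the collagen gene Col3a1 1121 and 3307 CPM. Of the epithelial markers, Cdx2 was at 0 and neither Epcam nor Cdh1 exceeded 1 count, although Krt19 was read at 9.03 CPM.

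Within the family, members were split by the filter on low counts. This split did not fully follow level, since the group means of Areg per kilobase stood above those of Nrg1 and Btc (below). Kept by the filter on low counts were Ereg, Hbegf, Nrg1, Btc and Egfr, while Areg, Tgfa and Epgn were dropped by it. The filter asked for 0.916 CPM in 6 libraries. Btc met it in 6 knockout but only 2 control libraries, so it was tested only through its knockout level, a choice that favours a difference. Per kilobase of exon, the control libraries held Egfr at 12.85 ± 4.28 CPM per kb, Ereg at 8.26 ± 5.28, Hbegf at 6.72 ± 2.58, Areg at 0.733 ± 0.301, Nrg1 at 0.477 ± 0.172 and Btc at 0.257 ± 0.133 CPM per kb (SD, n = 6). Tgfa (0.0517 CPM per kb) and Epgn (0.021 CPM per kb) came last. In the knockout libraries Hbegf stood first at 46.5 ± 42.2 CPM per kb, ahead of Ereg at 35.3 ± 16.9, Egfr at 15.95 ± 2.40, Areg at 2.12 ± 2.45, Btc at 1.27 ± 1.16 and Nrg1 at 0.662 ± 0.147 CPM per kb (SD, n = 6). In the control order, ranges of neighbours overlapped except between Hbegf and Areg and between Btc and Tgfa. In the knockout order they overlapped between Hbegf and Ereg, between Areg and Btc and between Btc and Nrg1, while Egfr (at most 18.3 CPM per kb) lay below Hbegf and Ereg (at least 18.8 CPM per kb) and above Areg. The knockout order rested on knockout 5 and 6. In knockout 1 to 4 summed, Ereg (24.6 CPM per kb) stood above Hbegf (19.2 CPM per kb), and Nrg1 (0.737 CPM per kb) stood above Areg (0.622 CPM per kb) and Btc (0.547 CPM per kb). In knockout 5 and 6 Hbegf (101 CPM per kb) stood above Ereg (56.6 CPM per kb). Exon lengths were taken from GENCODE, and the annotation behind the counts is not given in the sources used here.

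On mouse chromosome 5, Epgn, Ereg, Areg and Btc follow each other with no other protein-coding gene between them in the RefSeq gene table. The long noncoding RNA gene Gm19610 overlaps an end of Ereg there, and reads from the overlap could belong to either gene. Upstream sequences of Areg and Btc are shown because these neighbours were both highest in knockout 5 and 6 (below), and such a sequence of Ereg was not matched. They are the 250 bases before the RefSeq start (build GRCm38.p6), 5′ to 3′ in the gene's direction, with matches to the searched motifs in capitals.
Areg promoter, chr5:91139349-91139598, plus strand: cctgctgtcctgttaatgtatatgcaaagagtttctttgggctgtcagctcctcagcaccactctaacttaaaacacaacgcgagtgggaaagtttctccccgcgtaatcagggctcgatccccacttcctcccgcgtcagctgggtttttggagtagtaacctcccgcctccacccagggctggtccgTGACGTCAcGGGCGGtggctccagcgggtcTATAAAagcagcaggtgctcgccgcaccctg
Btc promoter, chr5:91402995-91403244, minus strand: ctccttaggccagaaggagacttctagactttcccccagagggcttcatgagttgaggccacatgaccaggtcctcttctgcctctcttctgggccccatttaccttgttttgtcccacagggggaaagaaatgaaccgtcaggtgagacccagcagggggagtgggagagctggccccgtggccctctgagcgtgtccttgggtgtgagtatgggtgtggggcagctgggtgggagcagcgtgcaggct
The Areg sequence held a cyclic AMP response element (CRE, TGACGTCA) at 61 to 54 bases before the start, a GC box (GGGCGG) at 52 to 47 bases and a TATA box (TATAAA) at 31 to 26 bases, none overlapping another. Both strands were searched, and CRE was found in 1.55%, GGGCGG in 32.7% and TATAAA in 12.4% of 32851 RefSeq promoters of the same length. The Btc sequence held no match to these motifs, to TGACTCA (the AP-1 motif, in 4.46% of promoters), to the NF-kB consensus (7.25%) or to the CArG box (1.47%). A match or its absence is a description of these letters only. Promoter sequences of 5 of the 8 members were searched (Areg, Tgfa, Btc, Epgn and Egfr). Those of the remaining members were not searched, which does not mean that they were absent from the source.

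Knockout libraries had more transcript of the EGFR ligands Hbegf (6.92-fold in the fit) and Ereg (4.26-fold). Btc had a fitted fold of 4.91 and also passed the test, but since the filter kept it only for its knockout level, its p-value is given as a description and supports nothing. No tested member was called lower. Of the 8 members 5 were tested, and 3 of these passed the edgeR quasi-likelihood threshold (adjusted p under 0.05), against 43.0% of the 12146 genes tested in either direction, 21.4% higher and 21.6% lower. Because so many genes passed, and because Btc was kept only through its high group, the number of members called is a description and not a result about the family. The levels of all 3 were highest in knockout 5 and 6.

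Ereg encodes epiregulin, a ligand of EGFR and ERBB4. Knockout 1 to 6 held 101.5, 106.9, 95.6, 101.9, 255.5 and 211.9 CPM of it, while control 1 to 6 held 23.8, 26.4, 25.1, 25.1, 25.6 and 78.5 CPM. Every knockout library lay above every control library, with control 6 the nearest below. Group means were 145.5 ± 69.8 and 34.1 ± 21.8 CPM (SD, n = 6 each), a log2 difference of 2.09 (SE 0.38; edgeR adjusted p = 0.000823). Summed by set, knockout 1 to 4 held 101.7 CPM of Ereg, whereas knockout 5 and 6 held 233.7 CPM and control 1 to 5 held 25.2 CPM. The fold between sets ran from 1.30 (knockout 1 to 4 over control 6) to 9.28 (knockout 5 and 6 over control 1 to 5). Groups that did not overlap, as here and for Hbegf, were found for 23.0% of all genes tested, and for 10.6% with the knockout above.

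Hbegf encodes heparin-binding EGF-like growth factor, whose membrane form is also the receptor for diphtheria toxin in primates. Knockout 1 to 6 gave 45.4, 44.7, 46.5, 46.2, 244.8 and 235 CPM, against 13.4, 14.2, 13.8, 13, 12.9 and 28.4 CPM for control 1 to 6. Knockout 5 and 6 stood 5.25-fold above knockout 1 to 4, and control 6 stood 2.11-fold above control 1 to 5. The means were 110.4 ± 100.3 and 16.0 ± 6.13 CPM (SD, n = 6 each), with a log2 difference of 2.79 (SE 0.53; edgeR adjusted p = 0.00123). Between sets the fold was 1.61 at its smallest (knockout 1 to 4 over control 6) and 17.8 at its largest (knockout 5 and 6 over control 1 to 5). Leaving out knockout 5 and 6 brought the log2 difference down to 1.51 (SE 0.21; edgeR adjusted p = 0.000222).

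Btc encodes betacellulin, a ligand of EGFR and ERBB4, and it was read at low depth, with 5 to 78 counts in a library. Knockout 1 to 6 had 1.99, 1.41, 0.949, 1.70, 7.78 and 8.07 CPM, and control 1 to 6 had 0.365, 0.527, 1.09, 0.630, 0.490 and 1.34 CPM. The groups overlapped, since knockout 3 lay below control 3 and control 6. The log2 difference was 2.30 (SE 0.57; edgeR adjusted p = 0.00649), from means of 3.65 ± 3.33 and 0.739 ± 0.384 CPM (SD, n = 6 each). Without knockout 5 and 6 the log2 difference was 1.03 (SE 0.37; edgeR adjusted p = 0.0357). The smallest fold between sets was 1.18, from sums of 52 counts in knockout 1 to 4 and 21 counts in control 6.

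**Figure D1:**
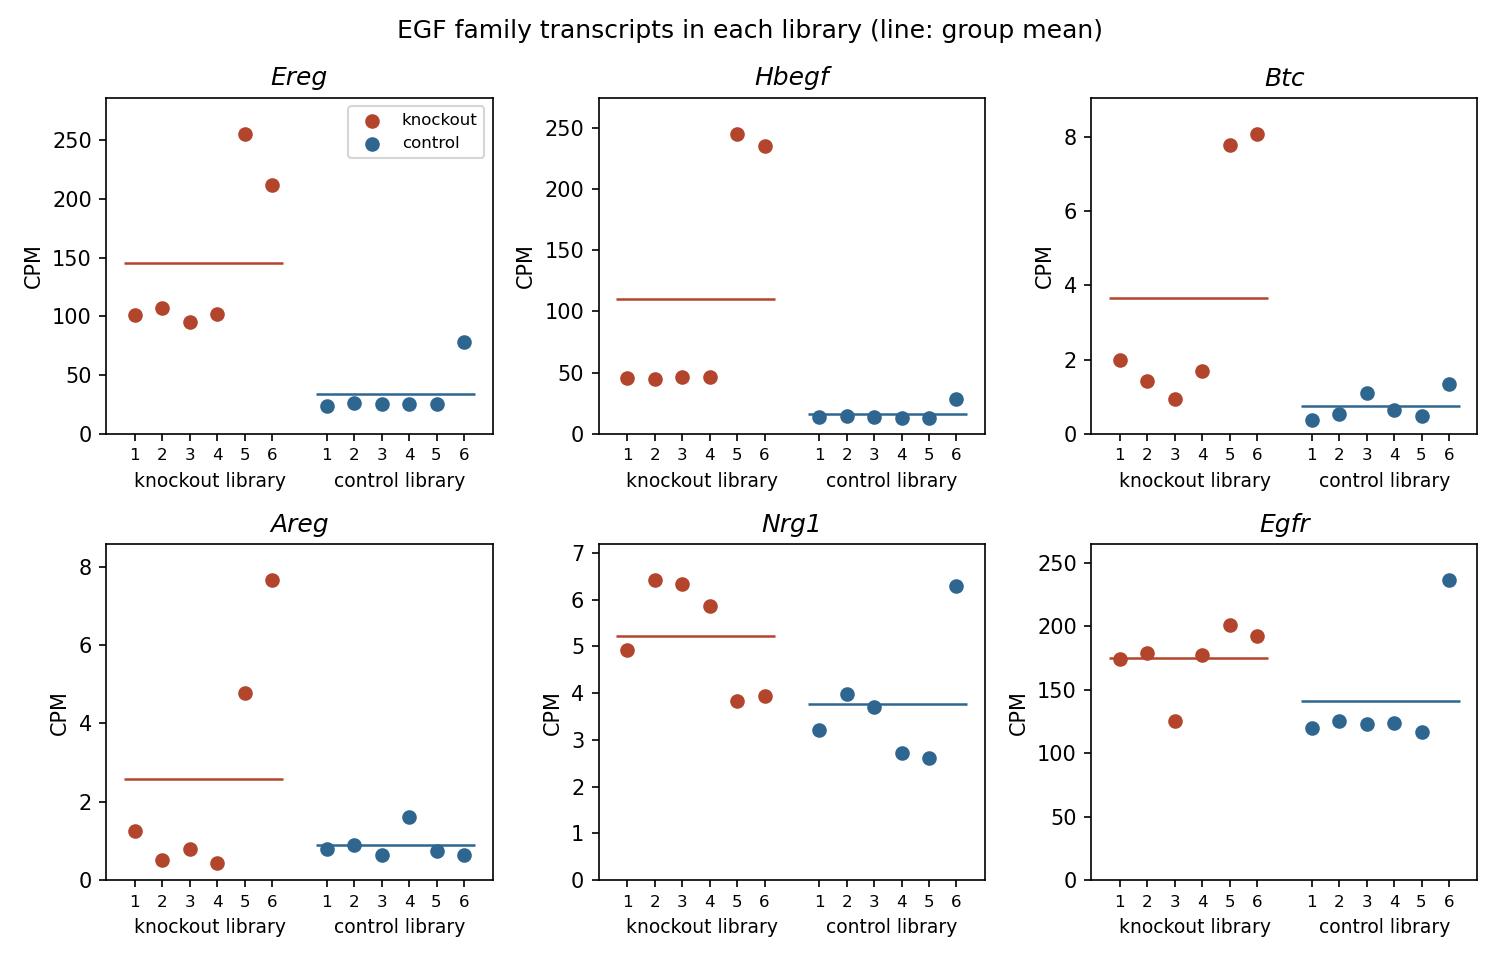
Level in CPM (y axis, linear, from 0) of 6 EGF family transcripts in each of the 6 knockout and 6 control libraries (x axis), with points for libraries and lines for group means. Ereg, Hbegf, Btc and Areg are highest in knockout 5 and 6, while Egfr is highest in control 6 at 236.2 CPM.

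Counts summed over the 4 sets and compared as 2 sums against 2 gave log2 differences of 2.78 for Hbegf, 2.32 for Btc and 1.70 for Ereg. None passed in that edgeR test (adjusted p = 0.613 for each, unadjusted p = 0.0137, 0.0405 and 0.0381), and among 13132 genes in that fit 0 passed after adjustment (0% higher) and 1047 had an unadjusted p under 0.05.

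Areg encodes amphiregulin, an EGFR ligand made by many mesenchymal and immune cells, and it was not among the genes kept by the filter. It had 12, 4, 5, 4, 46 and 74 counts in knockout 1 to 6, or 1.26, 0.513, 0.791, 0.426, 4.77 and 7.66 CPM. In control 1 to 6 it had 11, 12, 9, 23, 9 and 10 counts, or 0.804, 0.904, 0.653, 1.61, 0.734 and 0.636 CPM. Only knockout 5 and 6 stood above the control range. Their summed level of 6.22 CPM was 8.22 times that of knockout 1 to 4 (0.756 CPM), which in turn was below that of control 1 to 5 (0.951 CPM). With no filter the log2 difference over 12 libraries was 1.54 (SE 0.64; edgeR adjusted p = 0.0838). It was -0.24 (SE 0.39; edgeR adjusted p = 0.63) without knockout 5 and 6. In fits that left out knockout 2 or knockout 4, Areg passed the filter and the threshold (edgeR adjusted p = 0.0409 and 0.035), and without knockout 3 it passed the filter but not the threshold (edgeR adjusted p = 0.0531).

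Tgfa and Epgn, which encode the EGFR ligands TGF-alpha and epigen, were near-absent. Tgfa had 2 to 9 counts in each knockout library (26 in all) and 0 to 8 in each control library (20 in all), with means of 0.487 ± 0.289 and 0.234 ± 0.174 CPM (SD, n = 6 each). Its log2 difference with no filter was 1.00 (SE 0.56; edgeR adjusted p = 0.199), so no difference could be shown at this depth. Epgn was at 0 in all 6 knockout libraries, which allows up to 0.31 to 0.475 CPM per library (3 counts, counting error only), and at 0 or 1 count in each control library.

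Nrg1 encodes neuregulin 1, a ligand of ERBB3 and ERBB4 rather than EGFR, and its libraries were ordered in another way. Knockout 1 to 6 had levels of 4.92, 6.42, 6.33, 5.86, 3.84 and 3.93 CPM, and levels in control 1 to 6 were 3.22, 3.99, 3.70, 2.73, 2.61 and 6.30 CPM. Knockout 5 and 6 were the lowest of the knockout group here, inside the control range, and control 6 was among the highest of all. The means of 5.21 ± 1.16 and 3.76 ± 1.35 CPM (SD, n = 6 each) gave a log2 difference of 0.46 (SE 0.23; edgeR adjusted p = 0.125). It passed the threshold without control 6 (0.67, SE 0.19; edgeR adjusted p = 0.0101) and without knockout 5 and 6 (0.63, SE 0.24; edgeR adjusted p = 0.0441), where 4 of 6 tested members were higher against 24.5% of genes. Against control 6 both knockout sets were lower, by 1.08-fold for knockout 1 to 4 and 1.62-fold for knockout 5 and 6.

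Egfr, which encodes the receptor of the 6 ligands other than Nrg1, did not pass the test. Knockout 1 to 6 were at 174.3, 178.9, 125.1, 177.1, 200.8 and 192.2 CPM, and control 1 to 6 were at 119.6, 125.5, 122.7, 123.5, 117 and 236.2 CPM. Control 6 was the highest of all 12 libraries, and knockout 3 lay within the range of control 1 to 5. The means were 174.7 ± 26.3 and 140.8 ± 46.8 CPM (SD, n = 6 each), and the log2 difference was 0.31 (SE 0.18; edgeR adjusted p = 0.183). Without control 6 it was 0.52 (SE 0.10; edgeR adjusted p = 0.00143), and all 5 tested members, Btc included, were then called higher against 25.4% of all genes tested. Leaving out knockout 5 and 6 as well gave 0.44 (SE 0.08; edgeR adjusted p = 0.000146) and again the 5 tested members called higher, against 34.9% of genes. In that last fit genotype and set cannot be told apart. Compared with control 6, Egfr was lower by 1.42-fold in knockout 1 to 4 and by 1.2-fold in knockout 5 and 6.

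**Figure D2:**
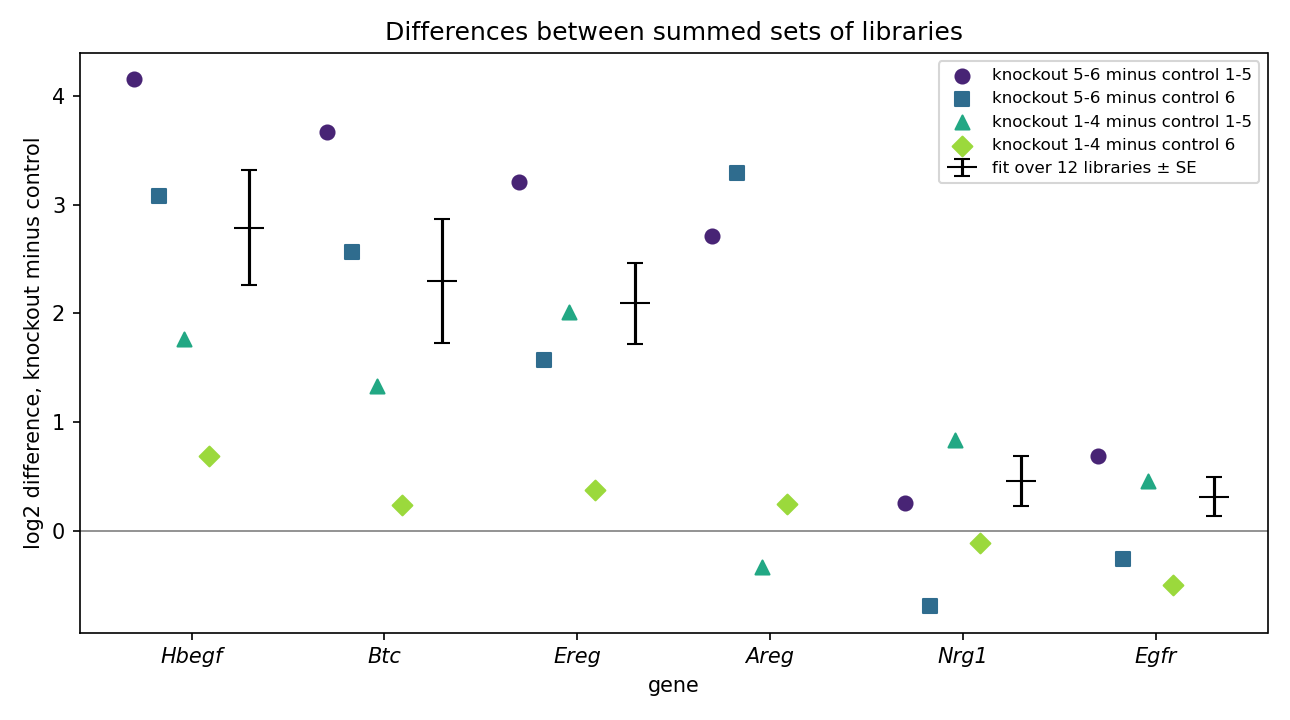
Log2 difference, knockout minus control (y axis), of 6 genes (x axis) for each of the 4 contrasts of a summed knockout set with a summed control set, and for the fit over 12 libraries with its SE where the gene was tested. Hbegf, Btc and Ereg lie above 0 in all 4 contrasts, whereas Areg, Nrg1 and Egfr lie on both sides of 0.

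Across the 12 libraries the log2 CPM of Hbegf followed that of Ereg (Pearson r = 0.96) and of Btc (r = 0.953), and r was 0.894 between Ereg and Btc. The value between Areg and Btc was 0.752, and Nrg1 gave 0.575 with Egfr, 0.555 with Ereg, 0.339 with Hbegf, 0.237 with Btc and -0.32 with Areg. Egfr gave 0.799 with Ereg, 0.733 with Btc, 0.698 with Hbegf and 0.305 with Areg. These points share the 4 sets and the depth of each library, so they describe the libraries only. The genes most like Ereg in profile among 10271 candidates were Inhba (r = 0.999), which encodes a subunit of activin A, Cyr61 (r = 0.997), a matrix-associated growth regulator, and Tjap1 (r = 0.994), a tight junction protein gene. For Hbegf they were Rrm1 (0.998), a subunit of ribonucleotide reductase, the tyrosine kinase gene Tnk2 (0.998) and Phlda1 (0.997). Without the 2 libraries farthest from the Hbegf median, knockout 5 and 6, r was 0.989 to 0.997 for these 3 genes. Egfr was most like Nfic (0.981), a transcription factor gene, Fgf2 (0.976), a fibroblast growth factor gene, and Kmt2b (0.967), a histone methyltransferase gene. Btc was most like Tob2 (0.986), Spdl1 (0.978) and Polr2b (0.977), and Nrg1 was most like Rtn2 (0.968), Inpp1 (0.943) and Rdh11 (0.941). By rank the likeness was weaker, with Spearman's rho of 0.818 for Rrm1 with Hbegf and 0.811 for Fgf2 with Egfr. For the other genes named with a member rho was 0.888 to 0.986. Leaving out the 2 farthest libraries gave r of 0.996 to 0.998 for the genes named with Ereg (without control 1 and control 3). It gave 0.922 to 0.979 for those with Nrg1 (without knockout 2 and knockout 3). In both cases all 4 sets stayed in, so these values cannot show whether r rests on differences between sets. For Egfr r was 0.97 to 0.983 (without control 6 and knockout 5), and for Btc 0.901 to 0.948 (without knockout 5 and knockout 6).

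Of the other ERBB ligands and receptors, 1 of 7 was tested. Erbb2, the receptor that binds no ligand and pairs with the others, was read at 33.9 to 41.6 CPM in the knockout and 31.2 to 46.7 CPM in the control libraries (edgeR adjusted p = 0.337; log2 difference 0.13 with an SE of 0.10). Control 6 was the highest of the 12, and without it the difference was 0.23 (edgeR adjusted p = 0.0213). Erbb4 was at 0 in every library, and Erbb3, the other neuregulin receptor, had at most 13 counts in any library. Egf had at most 17 counts (0.471 ± 0.304 CPM in the knockout and 0.944 ± 0.158 CPM in the control libraries; SD, n = 6 each), Nrg2 at most 11, and Nrg3 and Nrg4 at most 1. Means of Erbb3 were 0.240 CPM in the knockout and 0.703 CPM in the control libraries. With no filter, 2 of 6 genes of this list were called lower and 0 higher, against 2905 lower and 2488 higher of 17461 genes (edgeR).

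Of the 13 tested genes of ligand release, 3 were higher, 3 lower and 7 not past the test, so that 46.2% were called against 43.0% of all genes tested. Their median log2 difference was 0.03, against 0.02 over all genes tested. Adam17, the main protease that sheds Areg, Ereg, Hbegf and Tgfa products, fell from 94.7 ± 4.03 to 73.7 ± 6.84 CPM (edgeR adjusted p = 0.00215; log2 difference -0.36 with an SE of 0.07; SD over n = 6 each). Rhbdf2, which encodes the iRhom2 protein that carries ADAM17 to the cell surface, fell from 11.4 ± 0.992 to 5.89 ± 1.36 CPM (edgeR adjusted p = 0.000525; log2 difference -0.95 with an SE of 0.16). For both genes every knockout library was below every control library. Adam12, another shedding protease, rose from 119.7 ± 34.1 to 208 ± 59.4 CPM (edgeR adjusted p = 0.00905; log2 difference 0.80 with an SE of 0.21), although control 6 at 188.3 CPM was above knockout 3, 5 and 6.

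The calls on 3 other genes of this list were lost in some fits that left out a single library. Timp3, an inhibitor of ADAM17, rose from 569.3 to 1108 CPM (edgeR adjusted p = 0.0301), with control 6 at 1444 CPM above all knockout libraries and control 1 to 5 at 389.9 to 400.3 CPM. Its call was lost without any one of control 1 to 5 (edgeR adjusted p = 0.0666 to 0.0672), and its log2 difference of 0.96 became 1.49 without control 6. Levels of the protease gene Adam19 rose from 429.6 to a mean of 576.3 CPM (edgeR adjusted p = 0.029; log2 difference 0.42). Without knockout 1, 2 or 4 (edgeR adjusted p = 0.0592 to 0.0608) or any one of control 1 to 5 (0.0604 to 0.0651) the call was lost, with log2 differences of 0.38 to 0.41. Adam8 fell from 8.6 to 5.48 CPM (edgeR adjusted p = 0.0341; log2 difference -0.66). Its call was lost without knockout 1, 2, 5 or 6 (edgeR adjusted p = 0.0524 to 0.0659), control 1 (0.0561) or control 6 (0.0592), with log2 differences of -0.67 to -0.47. The count of higher genes in the list went from 3 to 1 without any one of control 1 to 5.

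Among genes that inhibit the receptor or direct its turnover, 5 of 14 rose, 1 fell and 8 did not pass the test, with a median log2 difference of 0.11 and 42.9% called against 43.0% of all genes. Cbl, a ubiquitin ligase that marks active EGFR for degradation, rose from 17.3 ± 5.88 to 32.1 ± 8.29 CPM (edgeR adjusted p = 0.00624; log2 difference 0.89 with an SE of 0.22; SD over n = 6 each). Its groups overlapped, with control 6 at 28.9 CPM above knockout 3 at 18.7 CPM. Sh3kbp1, which encodes the CBL-binding protein CIN85, rose from 185.1 ± 45.8 to 385.8 ± 33.9 CPM (edgeR adjusted p = 0.000112; log2 difference 1.06 with an SE of 0.14), and its groups did not overlap. Errfi1, which encodes the EGFR kinase inhibitor MIG6, rose from 82.5 to 216.2 CPM (edgeR adjusted p = 0.0389; log2 difference 1.39 with an SE of 0.50). It was read at 498.1 and 448.2 CPM in knockout 5 and 6 but at 85.5 to 91.8 CPM in knockout 1 to 4, below the 130.9 CPM of control 6. The Errfi1 call was lost without knockout 5 (edgeR adjusted p = 0.102), without knockout 6 (0.0932) and without any one of control 1 to 5 (0.0728 to 0.0744), and the log2 difference was 0.09 without knockout 5 and 6. Rnf41, a ubiquitin ligase for ERBB3, fell from 78.4 to 65.2 CPM (edgeR adjusted p = 0.0127; log2 difference -0.27 with an SE of 0.08). Its groups overlapped too, with control 6 at 66.3 CPM below knockout 4 at 70.8 CPM. Leaving out control 6 raised the count of higher genes in the list from 5 to 8.

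Adaptors and kinases gave 10 higher, 4 lower and 12 not past the test of 26, with a median log2 difference of 0.0044 and 53.8% called against 43.0% of all genes (21.4% higher, 21.6% lower). Pik3cb, a catalytic subunit of PI3-kinase, rose from 13 ± 0.771 to 23.3 ± 4.92 CPM (edgeR adjusted p = 0.00037; log2 difference 0.85 with an SE of 0.13; SD over n = 6 each), and the kinase gene Src from 86.6 to 122.4 CPM (0.50, SE 0.09; edgeR adjusted p = 0.000981). Both kinases that phosphorylate ERK fell, Map2k1 from 209.9 to 166.8 CPM (-0.33, SE 0.07; edgeR adjusted p = 0.00182) and Map2k2 from 144.1 to 110 CPM (-0.39, SE 0.09; edgeR adjusted p = 0.00462). For Map2k2 the groups overlapped, with knockout 3 at 130.8 CPM above control 6 at 116.1 CPM. Eps8, an EGFR substrate that links it to actin, fell from 253.5 to 152.9 CPM (-0.73, SE 0.13; edgeR adjusted p = 0.000935).

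Of the genes known to be induced by ERK, 4 of 18 were higher, 6 lower and 8 not past the test (median log2 difference 0.08; 55.6% called against 43.0% of all genes). Dusp5, a phosphatase of nuclear ERK, rose from 13.8 ± 2.44 to 54.4 ± 50.0 CPM (edgeR adjusted p = 0.00673; log2 difference 1.99 with an SE of 0.50; SD over n = 6 each) with 118.7 CPM in knockout 5 and 6 but 22.3 CPM in knockout 1 to 4. Phlda1, an inducible gene with a pleckstrin homology-like domain, rose from 58.1 to 179.2 CPM (1.63, SE 0.32; edgeR adjusted p = 0.00158), and the ERK phosphatase gene Dusp4 from 120.3 to 218.8 CPM (0.86, SE 0.16; edgeR adjusted p = 0.00116). Phlda1 stood at 311.3 CPM in knockout 5 and 6 and at 112.6 CPM in knockout 1 to 4. Dusp4 stood at 290.6 and 185.7 CPM there, and knockout 3 (148.2 CPM) lay below control 6 (152.3 CPM). The transcription factor genes Fos, Egr1 and Etv5 fell. Fos went from 20.7 ± 5.47 to 6.72 ± 2.05 CPM (-1.61, SE 0.24; edgeR adjusted p = 0.000259), with control 6 at 9.60 CPM below knockout 6. Egr1 went from 147.5 ± 17.9 to 67.5 ± 13.5 CPM with no overlap between groups (-1.13, SE 0.14; edgeR adjusted p = 7.4e-05), and Etv5 from 85.6 to 46.6 CPM (-0.88, SE 0.12; edgeR adjusted p = 0.000142). Over all 5 lists 36 of 72 tested genes passed, 22 higher and 14 lower, which is 50% against 43.0% of all genes tested.

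**Figure D3:**
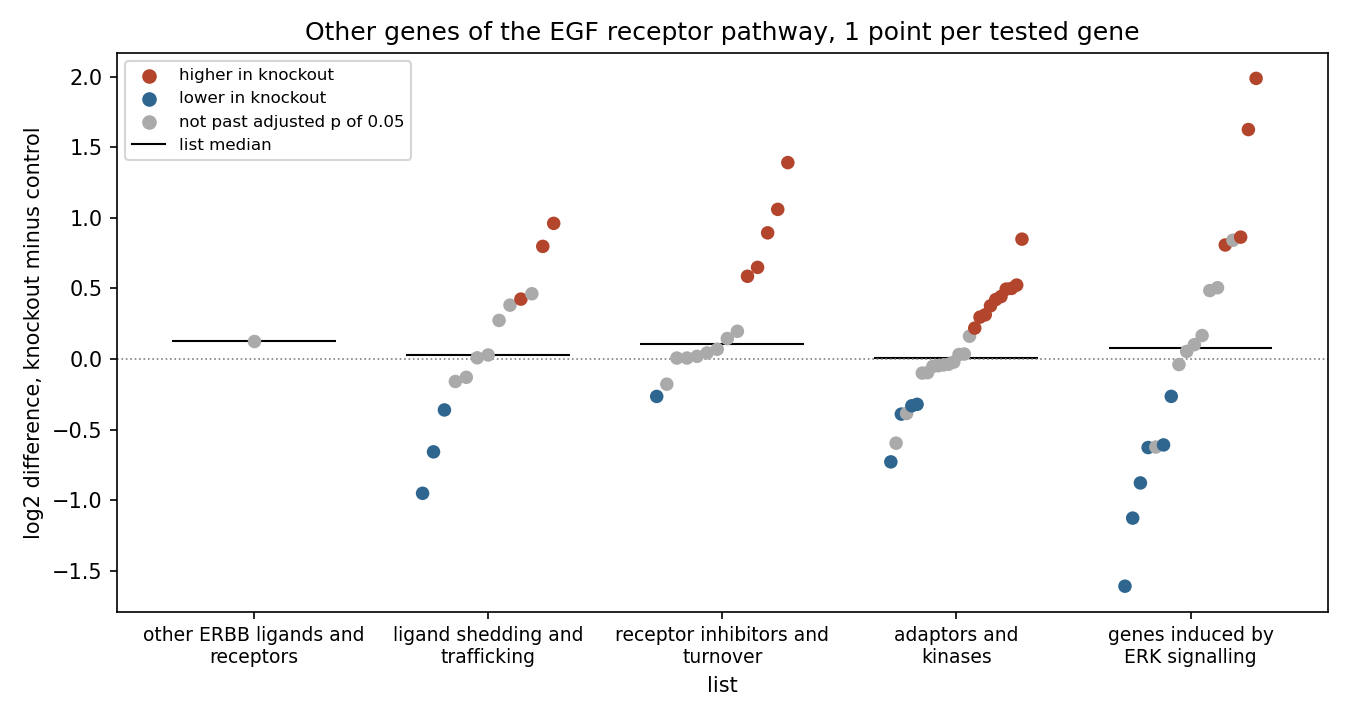
Log2 difference, knockout minus control (y axis), of the tested genes of 5 lists of the EGF receptor pathway (x axis), 1 point per gene in order of its value, colored by the call at an adjusted p of 0.05, with a line at each list's median. Genes are found on both sides of 0 in the 4 lists with more than 1 tested gene, and the widest range, from -1.61 to 1.99, is that of the genes induced by ERK signalling.

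Markers of cells that could add such ligands to a culture were low beside the myofibroblast markers. Sums of the leukocyte and of the glia and neuron markers did not overlap between groups. Those of the epithelial and of the endothelial markers did. The 12 macrophage and leukocyte markers summed to 37.0 to 55.5 CPM in knockout and 81.2 to 132.1 CPM in control libraries. Cd3e was at 0 and Lyz2 the most abundant of them. The 11 epithelial markers summed to 15.1 to 23.3 CPM in knockout and 7.56 to 20.2 CPM in control libraries, and 8 of them had 10 counts or fewer in every library. Endothelial markers (6 genes, Kdr the highest) summed to 5.28 to 9.94 and 7.10 to 11.3 CPM, and enteric glia and neuron markers (8 genes, Tubb3 the highest) to 18.0 to 27.8 and 44.7 to 48.5 CPM. The part of these cells in the results was not tested, and fewer cells of a type cannot be told apart from less RNA per cell in such samples.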

How the data were processed

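RNA sequencing counts of 12 libraries were analysed. Values in the deposited table are expected counts by gene symbol, as estimated by the authors' quantifier, and 2.67% to 3.48% of them per library had decimals. The submitters' processing notes list Bowtie2 2.1.0 and RSEM 1.2.15. They also list a human build although the symbols are mouse, and the counts carry no coordinates, which leaves their build uncertain. Neither the annotation release nor the strand setting of the counting is stated, so overlapping genes on opposite strands are uncertain. Messenger RNA was selected with oligo-dT and libraries were strand-specific, per the labels' protocols.

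Counts were rounded, filtered with filterByExpr (minimum count 10, minimum total 15), TMM-scaled and tested over all 12 libraries with the quasi-likelihood test of edgeR 4.0.16 in R 4.3.3, with genotype as the only term and Benjamini-Hochberg adjustment over 12146 genes. SE is the absolute log2 difference divided by the square root of F. Alternatives used DESeq2 1.42.0 and limma 3.58.1. The members, the pathway lists (79 genes) and the marker lists were chosen with earlier results of these data known, as was the omission of knockout 5, knockout 6 and control 6. A listed symbol (Nrdc) was matched through a synonym. Named genes were Tnfrsf1a, the members, up to 3 called genes with the largest rise and up to 3 with the largest fall per list, every tested gene of the list of other ERBB ligands and receptors, and for each tested member the 3 genes of highest Pearson r (log2 CPM with a prior count of 2, mean of at least 2; predicted genes passed over), and from each marker list the most abundant gene and those at 0. Epcam, Cdh1, Acta2, Col3a1 and the untested ERBB genes fall outside this rule and were chosen with their values in view. A gene that this rule chose is not reported here. The scripts were tested on simulated data. The simulated libraries were independent and formed no sets, so that test does not cover the sets of like libraries found here.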

Additional observations from a re-analysis of the deposited data

Results flagged for a closer look

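In groups of 6, a library was singled out when its gap to the nearest other library, divided by the range of the group, exceeded Dixon's critical value at the 95% level. Of 64 combinations of gene and group, 22 met this, and in 19 the library was control 6. Chance gives about 1 in 20 such groups, and the combinations are not independent because they share libraries. Like libraries at the same end of a group mask each other under this rule. Knockout 5 and 6, at 244.85 and 235.01 CPM for Hbegf, were therefore not singled out, whereas control 6 was a set by itself. The share of control 6 thus follows in part from the rule. For the members, control 6 was the highest control for Ereg (gap share 0.954), Egfr (0.928), Hbegf (0.914) and Nrg1 (0.6254). Control 4 was the highest control for Areg (0.725, at 1.61 CPM), and knockout 3 the lowest knockout for Egfr (0.65, at 125.1 CPM). Control 6 was the lowest control for Tnfrsf1a (0.703).

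In the pathway lists control 6 was the highest control for Timp3 (0.99), Sh3kbp1 (0.974), Adam19 (0.915), Errfi1 (0.899), Dusp4 (0.875), Src (0.838), Adam12 (0.814), Adam8 (0.786), Phlda1 (0.754), Cbl (0.714) and Erbb2 (0.66). It was the lowest for Fos (0.869), Etv5 (0.834) and Map2k2 (0.678). Knockout 3 was the highest knockout library for Map2k2 (0.653).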

How the results depend on the processing

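The rises of Ereg and Hbegf passed the threshold in every other setting tried (22 besides the one reported) except the test on 4 summed sets. Apart from that test, the settings count libraries of 1 set as separate samples. Passing in them is therefore no sign of stability across sets. Btc passed in the same settings, and for Btc the filter's choice by its knockout level is a further reason to draw nothing from it. In the summed sets the log2 differences of Ereg, Hbegf and Btc were 1.70, 2.78 and 2.32 and 0 members, 0 pathway genes and 0 of all genes passed in either direction (edgeR; 1047 genes at an unadjusted p of 0.05), and the Erbb2 difference turned to -0.029 (adjusted p = 0.984). That test has only 2 sums against 2. With each library left out in turn, log2 differences were 1.86 to 2.53 for Ereg, 2.39 to 3.04 for Hbegf, 1.91 to 2.57 for Btc, 0.37 to 0.67 for Nrg1 and 0.26 to 0.52 for Egfr, with 3 to 5 members higher, 2148 to 3092 genes higher and 2270 to 2977 lower, and 17 to 27 pathway genes higher and 11 to 14 lower. Nrg1 and Egfr passed without control 6, and Nrg1 (0.63) without knockout 5 and 6, where 4 members were higher against 24.5% of genes. Without knockout 5, knockout 6 and control 6, Nrg1 was at 0.84 and Egfr at 0.44, 5 members were higher, 4319 genes were higher and 4508 lower, and 34 pathway genes were higher and 22 lower. In these cases the cause was not tested. Replicate numbers did not pair the libraries (correlation of deviations -0.36 to 0.184 over 6 pairs, none matching its own number best). With the replicate block, the calls on Ereg (2.13), Hbegf (2.36) and Btc (2.02) held and 1867 of 12146 genes were higher and 2107 lower, while those on Adam19, Adam8, Errfi1 and Rnf41 were lost (adjusted p = 0.0846, 0.0583, 0.0974 and 0.0535). Errfi1 also missed the threshold in limma-voom (adjusted p = 0.126). Depth limits Areg, Tgfa, Epgn and Btc, read at 78 counts or fewer in any library.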

Other observations

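The protein-coding genes that flank the run of Epgn, Ereg, Areg and Btc on chromosome 5 in the RefSeq table are Mthfd2l, a mitochondrial folate enzyme gene, and Parm1; they were looked at after the members' values had been seen. Mthfd2l was read at 6.06 ± 0.449 CPM in control and 8.71 ± 2.11 CPM in knockout libraries (edgeR adjusted p = 0.0149; log2 difference 0.52 with an SE of 0.15; SD over n = 6 each). Parm1 was read at 4.95 ± 4.54 and 6.91 ± 3.44 CPM (edgeR adjusted p = 0.457; log2 difference 0.47 with an SE of 0.48).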
